A study of Mus musculus with 16 samples.

Results

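Genes that encode 10 subunits of the BAF and PBAF chromatin remodeling complexes were followed through 8 ATAC-seq libraries of activated mouse B cells: Smarca4, Smarca2, Arid1a, Arid1b, Arid2, Smarcb1, Smarcc1, Smarcc2, Smarcd1 and Pbrm1. They were chosen by symbol in the GENCODE M21 annotation of GRCm38, and they are 10 of the 12547 genes that had an accessible region at an annotated start site in at least 1 library. ATAC-seq marks accessible chromatin as peaks of sequenced fragments cut out by a transposase. A peak was assigned to a gene's promoter where it overlapped a window that begins 1000 bp before and ends 100 bp after any annotated start site of that gene. Peaks from all libraries that overlapped or touched were joined into 16566 regions, of which 10326 were promoter regions. Of these, 14 belonged to the member genes, and a further 17 regions lay in a member's body or within 10 kb of it.

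SWI/SNF complexes use the energy of ATP to slide or evict nucleosomes. Their motor is Brg1, the product of Smarca4, or its paralog Brm, the product of Smarca2, and it sits on a core of Smarcb1 with Smarcc and Smarcd subunits. BAF complexes add Arid1a or Arid1b, whereas PBAF complexes add Arid2 and Pbrm1. In B cells the Brg1-containing complexes are known for their part in lineage commitment, activation and the germinal center response.

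The cells were splenic B cells of C57BL/6 mice, selected with CD43/Ly-48 magnetic beads and activated in culture with LPS (10 µg/mL) together with IL-4 (20 ng/mL). The sample labels give 72 h of activation and the series description gives 96 h. Both groups carried CD23-Cre on 1 allele (CD23Cre +/-), which deletes floxed sequence in mature B cells. The Brg1 fl/+ group (n = 4) had 1 floxed and 1 wild-type Brg1 allele, and the Brg1 fl/fl group (n = 4) had both alleles floxed. The controls thus carried Cre and a floxed allele as well. Each library was made from 50000 cells. The labels number the libraries 1 to 4 within a genotype and do not say whether each came from a separate mouse, so the p-values below measure the spread between these libraries, which may be technical. In how the peak lists are named, libraries 1 and 2 of a genotype form a pair, as do 3 and 4, so the independent samples may number 2 a genotype. Values with the libraries averaged in these pairs stand beside the calls below.

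Peak height is used here as the measure of accessibility. It is the pile-up at a peak's summit as the peak caller counted it, recovered from the fold enrichment and −log10 p that it reported. The sources used here do not say whether whole fragments or extended reads were piled up, and the units are called fragments below. To compare libraries, each height was divided by the library's median over the 4236 promoter regions with a recovered height in all 8 libraries. The result is called relative height. A value of 1 is the median shared promoter. The libraries listed between 6271 and 14614 peaks, and the median shared promoter was between 22 and 79 fragments high. That median stood 44.4 to 63.2 times above the library's lowest background in Brg1 fl/+ and 28.1 to 31.1 times above it in Brg1 fl/fl (exact permutation test, two-sided p = 0.0286, the smallest that 4 against 4 libraries can give). Subtracting the background from the heights was tried, with values at the end. Beyond that, the part of this difference in the results below was not tested. In bulk cells, a lower peak from fewer cells with an open site cannot be told apart from a lower peak from less opening per cell. As for the cell type, promoters of the B cell genes Ms4a1 and Pax5 were accessible in all 8 libraries and that of Ebf1 in 3 of each genotype. Cd79a had a promoter peak in 1 Brg1 fl/+ library, and Cd79b and Cd22 had none in any. None of the 11 T cell, myeloid, NK and erythroid markers had a promoter peak in any library. Sdc1, Prdm1 and Xbp1, which mark plasma cells, had promoter peaks in 3, 3 and 2 Brg1 fl/+ libraries and in 4, 2 and 4 Brg1 fl/fl libraries.

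The sequences directly upstream of 3 of the promoters are given here because these 3 genes had the lowest adjusted p among the members when the genotypes were compared. They were read from GRCm38.p6, end at the base before the outermost start annotated by GENCODE or RefSeq, and are written 5′ to 3′ on the gene's strand. Capitals mark matches on either strand to the searched motifs, which are named after the sequences.

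Smarca4, chr9:21615905-21616105, plus strand: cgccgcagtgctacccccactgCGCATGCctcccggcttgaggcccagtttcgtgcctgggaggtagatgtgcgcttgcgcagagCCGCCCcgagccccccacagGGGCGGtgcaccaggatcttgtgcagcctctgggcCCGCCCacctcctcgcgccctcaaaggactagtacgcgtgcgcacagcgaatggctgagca
Smarca2, chr19:26604849-26605049, plus strand: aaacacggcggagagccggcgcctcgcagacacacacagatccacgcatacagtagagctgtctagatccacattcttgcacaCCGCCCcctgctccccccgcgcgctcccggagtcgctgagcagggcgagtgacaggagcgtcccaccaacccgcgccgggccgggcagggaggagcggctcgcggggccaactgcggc
Smarcb1, chr10:75921618-75921805, minus strand: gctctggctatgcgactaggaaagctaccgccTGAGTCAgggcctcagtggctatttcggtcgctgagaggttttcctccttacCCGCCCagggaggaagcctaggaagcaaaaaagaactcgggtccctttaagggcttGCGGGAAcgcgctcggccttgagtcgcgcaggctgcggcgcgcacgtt

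Smarca4 shows 3 GC boxes (GGGCGG or its complement, read by SP and KLF factors) and an NRF1 core (GCATGCG). Smarca2 shows 1 GC box, and Smarcb1 shows a GC box, an E2F match (GCGGGAA) and an AP-1 match (TGANTCA). In all, 11 motifs were searched in the 301 bp around the summit of every promoter region, on both strands, with overlapping matches counted. In those windows all 10 members held a GC box, as did 74.8% of all 10324 promoter regions with sequence. The NRF1 core was present at Smarca4, Smarcb1 and Smarcc1 and at 7.72% of all promoter regions. E2F matches were present at Smarcb1 and Smarcd1 (10.3% of all), ETS matches (CCGGAAG) at Smarca2 and Smarcc1 (20.95% of all) and a YY1 match (AAGATGGC) at Smarcc2 (5.81% of all). The CCAAT box, the CRE core (TGACGT), the E-box (CACGTG) and the RUNX (TGTGGTT), AP-1 and PU.1 (GAGGAAGT) letters were not in any member's summit window. Their shares over all promoter regions were 37.7%, 13.3%, 11.4%, 3.24%, 3.41% and 3.10%. Member summit windows held 65.8 to 80.1% G and C, and 8 of 10 were above the median promoter region, which held 66.1%. A match of letters describes the sequence and does not show that a factor was bound.

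Every member had a promoter region in at least 5 libraries. Smarca4, Smarcb1, Smarcc1 and Pbrm1 were accessible in all 8 libraries, as were 41.1% of all promoter regions. Smarca2 and Arid1b had a promoter peak in all 4 controls and in 3 and 2 Brg1 fl/fl libraries. Arid1a, Arid2, Smarcc2 and Smarcd1 were detected more often in Brg1 fl/fl, each by a single library. The Arid2 region joins summits that the genotypes did not share, described below, so its detection does not compare a single site. Counted over regions, 4 of the 14 were detected less often in Brg1 fl/fl and 6 more often, against 37.4% and 11.3% of all promoter regions. Per library, Brg1 fl/+ libraries listed a promoter peak for 10, 10, 7 and 8 of the 10 genes (mean 8.75 ± 1.5, SD, n = 4) and Brg1 fl/fl libraries for 10, 7, 10 and 10 (mean 9.25 ± 1.5, SD, n = 4). The difference between genotypes was smaller than the spread within either. The libraries with 7 genes, Brg1 fl/+ replicate 3 and Brg1 fl/fl replicate 2, had the shortest peak lists, with 6372 and 6271 peaks.

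**Figure D1:**
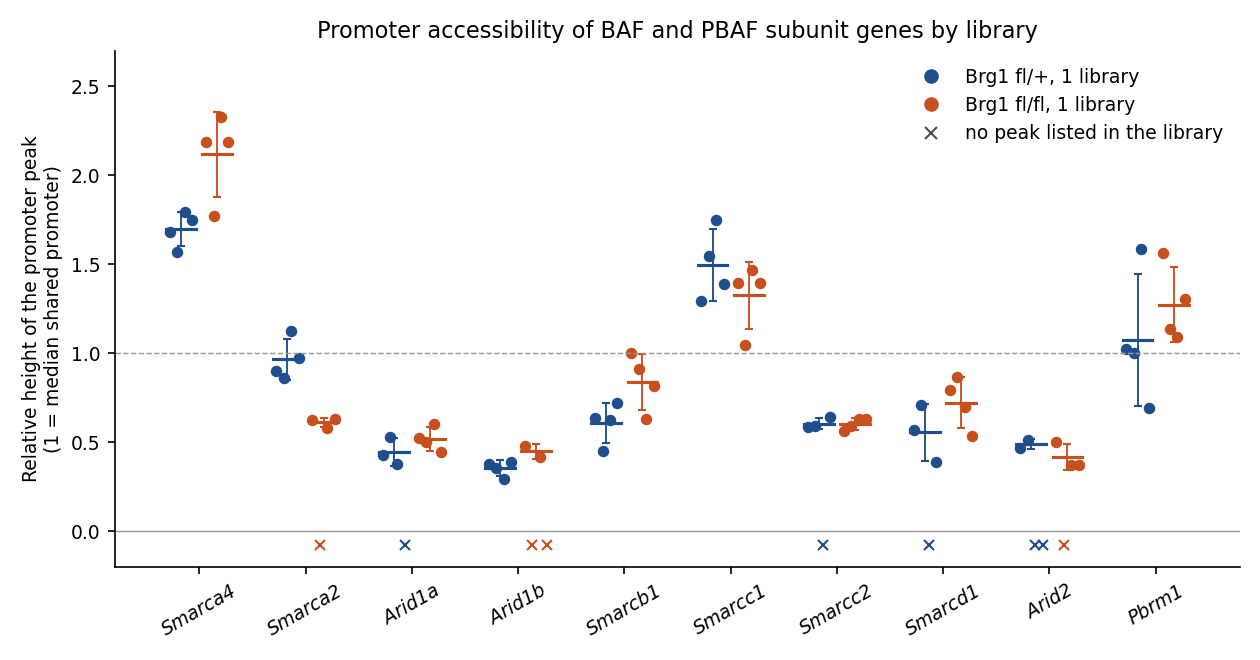
Relative height of the promoter peak (y axis, no unit, 1 being the median shared promoter) of each member gene (x axis) in 4 Brg1 fl/+ (blue) and 4 Brg1 fl/fl (orange) libraries, with the mean as a line, the SD as an error bar and a cross below 0 where a library listed no peak. Smarca4 was the most accessible member in each library, and for Smarca2 the 3 Brg1 fl/fl values sit below all 4 Brg1 fl/+ values.

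Smarca2, the gene of the alternative ATPase, was the only member whose promoter accessibility passed the test between genotypes, with a log2 difference (Brg1 fl/fl minus Brg1 fl/+) of −0.65. Smarca4 and Smarcb1 had the next lowest adjusted p, with higher means in Brg1 fl/fl, and missed the threshold, and for the other 5 members that could be fitted the interval of the difference included 0. Heights were compared with limma on log2 relative height. The fit over the 4566 regions with a height in all 8 libraries holds Smarca4, Smarcb1, Smarcc1 and Pbrm1. A wider fit over the 6506 regions found in at least 3 of 4 libraries of each genotype adds Smarca2, Arid1a, Smarcc2 and Smarcd1, with missing heights left out. Arid1b and Arid2 were detected in too few libraries for either. In the first fit 0 of 4 members passed an adjusted p of 0.05 in limma. At an unadjusted p under 0.05 were 2 of 4 members, beside 1049 of the 4236 promoter regions in that fit. An exact permutation test adjusted over all regions called 0, its lowest adjusted p for any region being 0.178. Its unadjusted p cannot fall below 0.0286. It could thus call a region only with a large share of all regions at that value. Of all promoter regions in the first fit, limma called 6.94% higher and 3.49% lower in Brg1 fl/fl. In the wider fit 1 of 8 members was called, Smarca2, which was lower in Brg1 fl/fl, where 4.08% of promoter regions were called lower and 5.61% higher. The member differences had a median of 0.30 (log2, 4 members) in the first fit and 0.26 (8 members) in the wider, beside 0.06 and 0.02 over all promoter regions. Groups of libraries that did not overlap were found for 0 of the 4 members of the first fit and for 14.3% of all its promoter regions. Over all regions of the first fit, 432 were called higher and 160 lower. Quantile normalization moved that split to 226 and 198, and the peak caller's fold to 161 and 100. Over all regions of the wider fit the split was 542 higher and 278 lower, and with the peak caller's fold it turned to 198 higher and 255 lower.

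**Figure D2:**
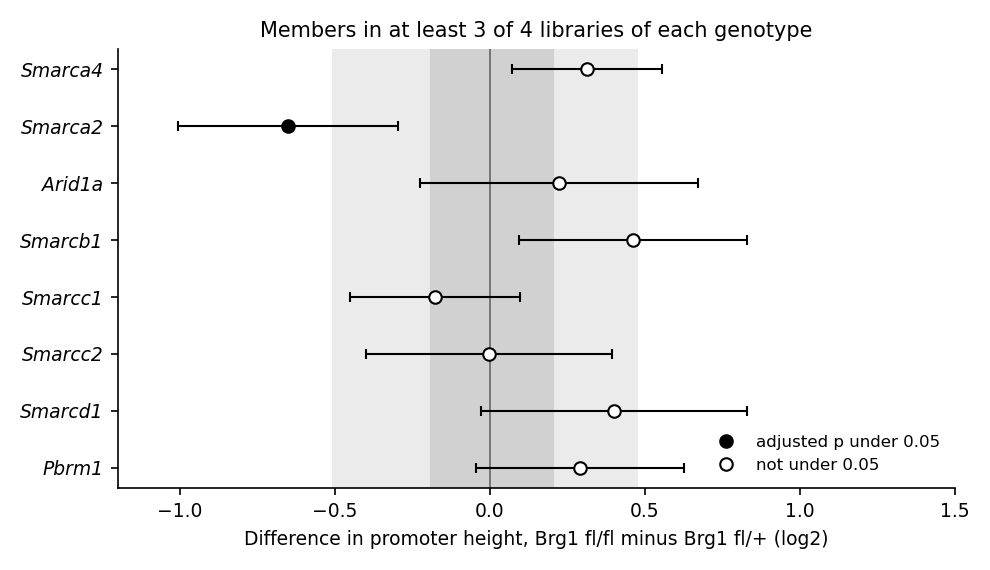
Difference in promoter height between genotypes (x axis, log2, Brg1 fl/fl minus Brg1 fl/+) for the 8 members in the wider limma fit (y axis), as the estimate with its 95% confidence interval, filled where the adjusted p was under 0.05. Grey bands hold the central 5 to 95 and 25 to 75 percentiles over all 5933 promoter regions of the fit, and Smarca2 at −0.65 lies outside the wider band.

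The differences at the ATPase genes had opposite signs. Smarca4, the floxed gene, encodes Brg1. Its promoter region (chr9:21615736-21616576, mm10) had its summit 126 bp upstream of the gene start and contained no start site of another gene. The height at the summit was 133, 80, 43 and 63 fragments in Brg1 fl/+ libraries 1 to 4, a relative height of 1.68, 1.57, 1.79 and 1.75. In Brg1 fl/fl it was 105, 39, 100 and 94 fragments, a relative height of 2.19, 1.77, 2.33 and 2.19. Brg1 fl/fl replicates 1, 3 and 4 lie above every control and the value of replicate 2 lies among the controls, so the groups overlap. The means were 1.70 ± 0.0973 and 2.12 ± 0.239 (SD, n = 4 each), a log2 difference of 0.31 (SE 0.12, 95% interval 0.08 to 0.55) that missed the threshold (limma, adjusted p = 0.0708). By the exact permutation test on this promoter alone, p was 0.0571 over 70 assignments. Without Brg1 fl/fl replicate 2, which had the shortest peak list, the difference was 0.40 with an adjusted p of 0.0256. Leaving out any other single library gave no call, with adjusted p from 0.0583 to 0.174. Quantile normalization brought the difference down to 0.18 (adjusted p = 0.350). Among the promoter peaks of a library, Smarca4 had a median percentile of 94.3. No other region was found in the gene or within 10 kb, so the peak lists hold nothing on the accessibility of the floxed exons, and the peak at the gene start is no check of the deletion.

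Smarca2 encodes Brm, the alternative ATPase. The region at its gene start (chr19:26604751-26605241) had its summit 13 bp upstream of the start and was 71, 44, 27 and 35 fragments high in Brg1 fl/+, a relative height of 0.899, 0.863, 1.13 and 0.972. In Brg1 fl/fl replicates 1, 3 and 4 it was 30, 25 and 27 fragments high, a relative height of 0.625, 0.581 and 0.628, and replicate 2 listed no peak. All detected Brg1 fl/fl values lie below all controls. The 14.3% given above is for promoter regions with values in all 8 libraries. The share that separates with a value missing was not counted. The lowest peak that Brg1 fl/fl replicate 2 listed anywhere had a relative height of 0.273. Means were 0.965 ± 0.116 (SD, n = 4) and 0.611 ± 0.0261 (SD, n = 3), and the log2 difference of −0.65 (SE 0.18, 95% interval −1.01 to −0.30) passed the threshold in the wider limma fit (adjusted p = 0.0109), which leaves out the missing library. The exact permutation p was 0.0286, the smallest that 4 against 3 libraries can give. The promoter was lower in Brg1 fl/fl in each leave-one-out fit, with adjusted p from 0.0120 to 0.0450 (limma). The lowest came without Brg1 fl/fl replicate 2, which held no value here, so that fit left out no Smarca2 height. The fits without Brg1 fl/fl replicate 1, 3 or 4 rest on fewer than 3 Brg1 fl/fl values. The peak caller's fold over local background gave −0.42 with an adjusted p of 0.0730. The rank of the peak by q gave an adjusted p of 0.348, so the call was lost under both. That rank called few regions at all, 1 higher and 2 lower of the 6506 in the wider fit. With the libraries averaged in pairs the difference was −0.64 and the call held (adjusted p = 0.0287).

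Smarca2 has 42 annotated start sites, and 2 further regions overlapped their windows. The region at an internal start 143052 bp into the gene (chr19:26747732-26748441, intronic) was detected in all 4 Brg1 fl/+ libraries, at relative heights of 0.329, 0.431, 0.542 and 0.306, and in Brg1 fl/fl replicate 4 alone of its group, at 0.302. It lies 87 bp upstream of the start of a protein-coding transcript. The other, 1717 bp into the gene at chr19:26606580-26606911, was a peak of 18 fragments in Brg1 fl/+ replicate 1 and in no other library. All 3 Smarca2 promoter regions were thus detected less often in Brg1 fl/fl, as were 37.4% of all promoter regions.

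Among the ARID subunits that define BAF, Arid1a had no peak at its gene start. Its region (chr4:133753758-133754536) lay 2524 bp downstream, in an intron, next to the start of a retained-intron transcript. Relative height was 0.430, 0.529 and 0.375 in Brg1 fl/+ replicates 1 to 3 with no peak in replicate 4, and 0.521, 0.5, 0.605 and 0.442 in Brg1 fl/fl. The groups overlap and the difference of 0.22 (95% interval −0.23 to 0.67) was not called (limma, wider fit, adjusted p = 0.564). Arid1b, the paralog that can replace Arid1a in the complex, had a low peak at its gene start (chr17:4994192-4994733, summit 129 bp downstream). It reached 0.380, 0.353, 0.292 and 0.389 in the 4 Brg1 fl/+ libraries, and 0.479 and 0.419 in Brg1 fl/fl replicates 1 and 3, while Brg1 fl/fl replicates 2 and 4 listed none. These heights compare only libraries that listed a peak, and with 2 of 4 Brg1 fl/fl libraries missing no model was fitted. A second Arid1b promoter region (chr17:4996458-4996714) was listed in Brg1 fl/fl replicate 4 alone, with 13 fragments.

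The core subunits had promoters of middle to high accessibility. Smarcb1 is the core subunit lost in rhabdoid tumors. Its region (chr10:75921101-75921805) covered the gene start, with the summit in the 5′ exon. Heights were 50, 23, 15 and 26 fragments in Brg1 fl/+ and 48, 20, 27 and 35 in Brg1 fl/fl. Relative to the shared promoters these were 0.633, 0.451, 0.625 and 0.722 against 1.00, 0.909, 0.628 and 0.814. The value of Brg1 fl/fl replicate 3 lies among the controls and the other 3 lie above them. The log2 difference of 0.46 (SE 0.19, 95% interval 0.08 to 0.84) missed the threshold (limma, adjusted p = 0.0979), and the exact permutation p was 0.0857. Without Brg1 fl/fl replicate 3 the difference was 0.60 with an adjusted p of 0.0456. Leaving out any other single library gave no call, with adjusted p from 0.0809 to 0.298.

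Smarcc1 and Smarcc2 encode the scaffold subunits BAF155 and BAF170. The Smarcc1 region with the larger value lay at a start inside the gene, 14279 bp from the gene start (chr9:110131682-110132434), at the first exon of a protein-coding transcript. Its relative height was 1.29, 1.55, 1.75 and 1.39 in Brg1 fl/+ and 1.40, 1.05, 1.47 and 1.40 in Brg1 fl/fl. These overlap, with a difference of −0.18 (95% interval −0.45 to 0.10; limma, adjusted p = 0.418). The region at the Smarcc1 gene start (chr9:110116943-110117740) also holds a start of Dhx30, an RNA helicase gene. Its relative height was 0.417 to 0.490 in 3 Brg1 fl/+ libraries and 0.488 to 0.605 in 4 Brg1 fl/fl libraries, a difference that did not pass the threshold (wider fit, difference 0.23, adjusted p = 0.525). Thus within Smarcc1 the internal start was the more accessible in each library that listed both. At Smarcc2 (chr10:128458601-128459644, which also holds the start of Mir8105) the detected values were close together, 0.582, 0.588 and 0.639 in Brg1 fl/+ and 0.563, 0.591, 0.628 and 0.628 in Brg1 fl/fl. The interval of that difference ran from −0.40 to 0.39. Smarcd1, which links the core to transcription factors, had its region at the gene start (chr15:99702011-99702598). Relative height was 0.570, 0.706 and 0.389 in Brg1 fl/+ and 0.792, 0.864, 0.698 and 0.535 in Brg1 fl/fl. The groups overlap (difference 0.40, 95% interval −0.03 to 0.83, wider fit, adjusted p = 0.223). Brg1 fl/+ replicate 3 listed no peak at Smarcc2, Smarcd1 or the Smarcc1 gene start.

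Of the PBAF subunits, Pbrm1 encodes a protein with a row of bromodomains, which bind acetylated histones. Its region (chr14:31018885-31019621) was shared with the start of Gnl3, a nucleolar GTPase gene, and the heights cannot be divided between the genes. Relative height was 1.03, 1.00, 1.58 and 0.694 in Brg1 fl/+ and 1.56, 1.14, 1.09 and 1.30 in Brg1 fl/fl. Controls spanned the whole range of the other group, and the difference of 0.29 (95% interval −0.05 to 0.64) was not called (limma, adjusted p = 0.274). Without Brg1 fl/+ replicate 3, the highest control, it was 0.51 with an adjusted p of 0.0283. Without Brg1 fl/+ replicate 4, the lowest control, it was 0.09 with an adjusted p of 0.788. Leaving out any library but Brg1 fl/+ replicate 3 gave no call, with adjusted p from 0.216 to 0.788. Arid2, the ARID subunit of PBAF, had its region upstream of the gene start (chr15:96286481-96287689). It was found in Brg1 fl/+ replicates 1 and 2, at 0.468 and 0.510, and in Brg1 fl/fl replicates 1, 3 and 4, at 0.5, 0.372 and 0.372. The summit lay 120 and 69 bp upstream of the start in the Brg1 fl/+ libraries and 607, 629 and 613 bp upstream in the Brg1 fl/fl libraries. The joined region thus holds separate summits that the genotypes did not share, and its heights were not compared at 1 position.

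By level, Smarca4 was the highest member in both genotypes, followed in the control means by Smarcc1 at its internal start (1.49 ± 0.201), Pbrm1 (1.08 ± 0.370) and Smarca2 (0.965 ± 0.116), SD with n = 4 each. Smarcb1 (0.608 ± 0.113, n = 4), Smarcc2 (0.603 ± 0.0311, n = 3), Smarcd1 (0.555 ± 0.159, n = 3), Arid2 (0.489 ± 0.0293, n = 2), Arid1a (0.445 ± 0.0782, n = 3) and Arid1b (0.353 ± 0.0438, n = 4) followed. Means with their SDs overlapped between neighbors in this order, except between Smarca2 and Smarcb1. In the Brg1 fl/fl means Smarcb1 (0.838 ± 0.159, n = 4) and Smarcd1 (0.722 ± 0.142, n = 4) stood above Smarca2. All 3 ARID genes were in the lower part, with median percentiles of 22.6 to 35.5 among the promoter peaks of a library.

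For comparison, 19 further genes were examined, the other subunits of these complexes and of the related complex with Brd9 and Bicra. Of the 19, 15 had a promoter region and 10 had one in all 8 libraries. Smarcd3, Actl6b, Dpf3 and Bicral had none in any library. Of the 10, limma called 2 higher and 0 lower in Brg1 fl/fl, beside 6.94% and 3.49% of all promoter regions. Brd7, a PBAF subunit that binds acetylated histones, had relative heights of 0.810, 0.902, 0.958 and 1.08 in Brg1 fl/+ and 1.52, 1.18, 1.58 and 1.35 in Brg1 fl/fl. The groups do not overlap and the difference was 0.58 (limma, adjusted p = 0.00524), called under 20 of 20 alternatives on the log2 scale, averaged pairs included (adjusted p = 0.0120). The call was lost with the rank by q (adjusted p = 0.407), under which 0 regions were called higher and 1 lower. The exact permutation test called 0 regions, and its adjusted p for Brd7 was 0.178, a value shared by all regions at its smallest p. Actb, whose product beta-actin is both a subunit and a part of the cytoskeleton, had relative heights of 1.84, 2.20, 2.00 and 2.11 in Brg1 fl/+ and 2.85, 2.59, 2.58 and 2.30 in Brg1 fl/fl. Here too the groups do not overlap (difference 0.34, adjusted p = 0.0356), but the call held under 11 of 20 alternatives, and with quantile normalization the difference was 0.15 (adjusted p = 0.404). It was also lost with averaged pairs (adjusted p = 0.101) and the rank by q (adjusted p = 0.403). In the exact permutation test Actb had the same shared adjusted p (0.178).

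**Figure D3:**
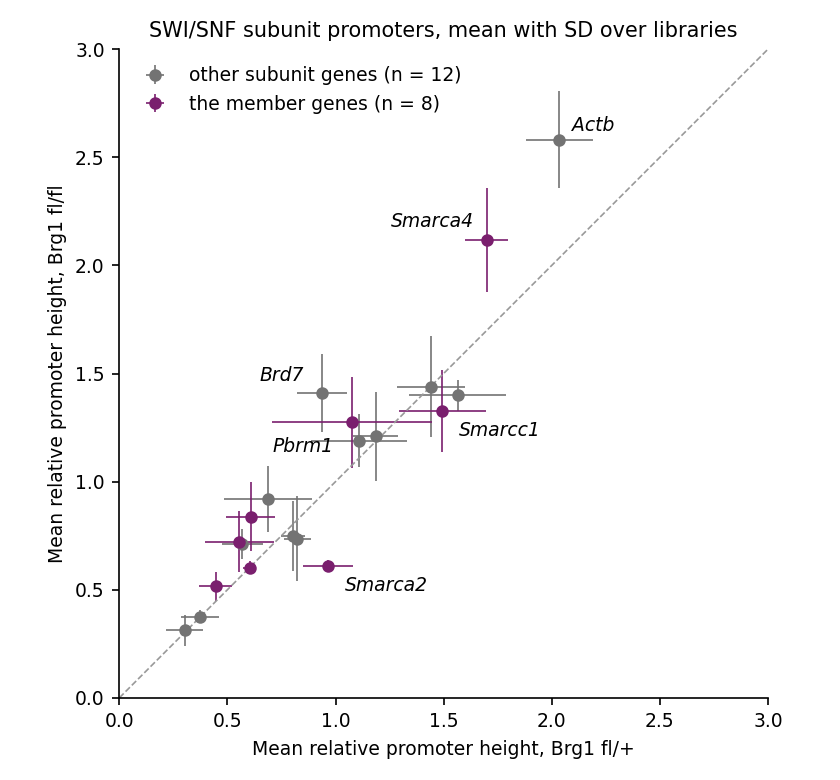
Mean relative promoter height in Brg1 fl/+ (x axis) against Brg1 fl/fl (y axis) for the 8 member genes and the 12 other subunit genes of the wider fit, with SD over libraries as bars and the line of equal height dashed. Actb (2.04 and 2.58), Brd7 (0.938 and 1.41) and Smarca4 lie above the line, and Smarca2 lies furthest below it.

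The 17 regions outside the member promoters were unevenly spread. Of the 17, 6 were the promoters of neighboring genes, and 11 were at no promoter, of which 10 belonged to Arid1b and 1 to an intron of Arid1a. Smarca4, Smarca2, Smarcc1 and Smarcd1 had no such region. Libraries listed 13, 10, 7 and 6 of the 17 in Brg1 fl/+ (mean 9 ± 3.16, SD, n = 4) and 8, 8, 9 and 7 in Brg1 fl/fl (mean 8 ± 0.816, SD, n = 4), a difference within the spread. Of the 11, 7 were detected less often in Brg1 fl/fl, 2 more often and 2 equally often, against 63.3% and 25.5% of all regions at no promoter, and 6 were found in a single library.

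Arid1b spans 353325 bp, the longest of the member genes. Its intronic region 195645 bp from the gene start (chr17:5189683-5190506) was the only one at no promoter found in all 8 libraries, and it was higher than the peak at the Arid1b start in each library that listed both. Relative height was 0.861, 0.745, 0.625 and 0.611 in Brg1 fl/+ and 0.979, 0.818, 0.674 and 0.814 in Brg1 fl/fl, which overlap (difference 0.21, 95% interval −0.13 to 0.56 in the wider fit, adjusted p = 0.455). Another intronic region, 309283 bp from the start (chr17:5303478-5303765), was found in Brg1 fl/+ replicates 1, 2 and 3 at 0.443, 0.529 and 0.583 and in no Brg1 fl/fl library. The next, 301520 bp from the start (chr17:5295729-5296064), was found in 2 Brg1 fl/+ libraries, at 0.405 and 0.549, and in Brg1 fl/fl replicate 3 at 0.395. With so few libraries no model was fitted to them. In the other direction, a weak region 164710 bp from the start was listed in 2 Brg1 fl/fl libraries, at 0.208 and 0.318, and in no control.

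**Figure D4:**
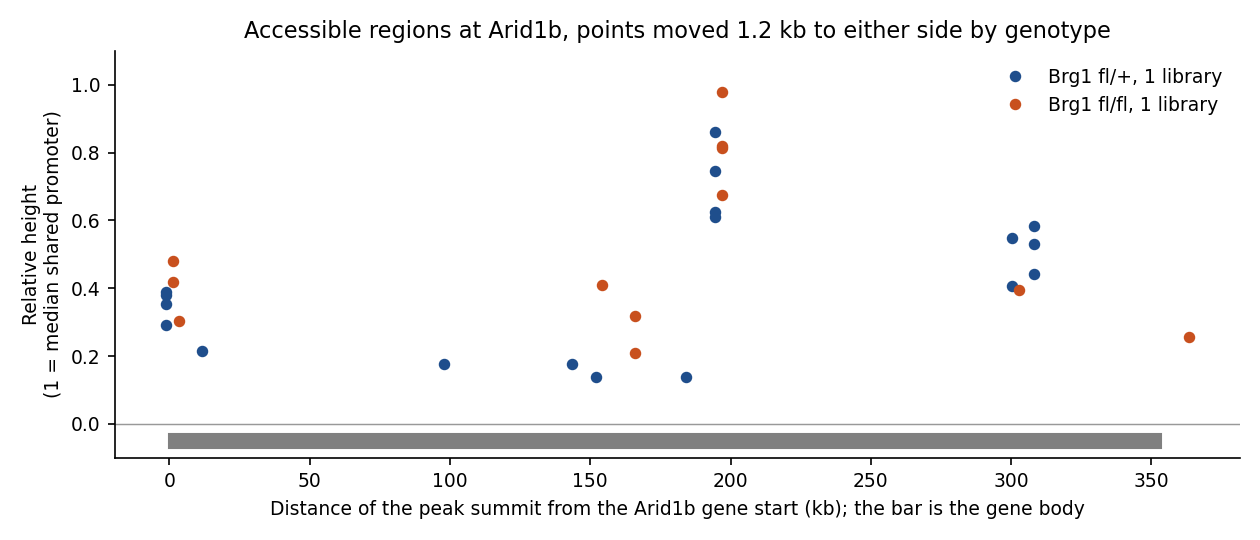
Relative height (y axis, 1 being the median shared promoter) of each peak at Arid1b against the distance of the region's median summit from the gene start (x axis, kb), 1 point per library, blue for Brg1 fl/+ and orange for Brg1 fl/fl, with the gene body as a grey bar. All 8 libraries have a point at the region 195645 bp from the start, and the region at 309283 bp has 3 blue points and no orange point.

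Of the neighboring promoters, that of Pigv, which encodes an enzyme of GPI anchor synthesis, lies past the 3′ end of Arid1a (chr4:133672215-133673208). Its relative height was 1.15, 1.41, 1.83 and 1.44 in Brg1 fl/+ and 2.56, 2.27, 2.60 and 2.40 in Brg1 fl/fl. The groups do not overlap, and the difference of 0.77 (SE 0.12) was called (limma, adjusted p = 4.14e-05) in the fit that holds the member promoters. With averaged pairs the adjusted p was 8.08e-05, and the call was lost with the rank by q (adjusted p = 0.102). That rank called 0 regions higher and 1 lower. The exact permutation test called 0 regions, and its adjusted p for Pigv was 0.178, a value shared by all regions at its smallest p. The neighbors Derl3 (near Smarcb1), Myl6 and the shared start of Myl6b and A430046D13Rik (near Smarcc2) and Smim4 (near Pbrm1) were detected in all 8 libraries with adjusted p from 0.156 to 0.755, and that of 2610037D02Rik (near Arid2) in 1 Brg1 fl/+ and 3 Brg1 fl/fl libraries.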

How the data were processed

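Per the labels, sequencing of the ATAC-seq libraries was followed by alignment to mm10 with Bowtie2 and by peak calling in each library with MACS2; versions and options are not given in the sources used here. The authors deposited a list of peaks per library with the fold enrichment at the summit as a ratio to the local background, −log10 p-value and −log10 q-value, and a score that rescales the last; these are not counts. The 8 RNA-seq samples were not used here. Fragments at the summit were solved from fold and −log10 p (tolerance 0.002) for 99.7 to 99.8% of peaks. Regions were fitted with limma 3.58.1 (trend, R 4.3.3) with Benjamini-Hochberg adjustment over all regions of the fit, and detection means at least 1 bp of overlap. Where a gene had several promoter regions, the one in most libraries, then the highest, carried its value. The members and lists were chosen with earlier results of these data known. Heights were also simulated for 8 independent libraries with counting noise only, without missing heights or a difference in background between genotypes. On these, limma called 47 of 50 and 50 of 50 regions with log2 changes of −1 and 1. It called 15 and 18 of 50 with −0.5 and 0.5, and 3 of 4366 unchanged regions. These shares hold for that setting and are not a rate of false calls in the real libraries. Replicate numbers did not pair the libraries: correlations of same-numbered deviations ran from −0.0609 to −0.00843. Heights within a genotype spread about as counting noise allows (dispersion 0.756 to 1.20, where 1 is counting noise, taking each unit of pile-up as 1 independent fragment). For this reason, and because the naming of the peak lists pairs them so, averaging libraries 1 with 2 and 3 with 4 was tried; intervals cover the spread between libraries only. Sequences came from RefSeq's GRCm38.p6 genome. The result for 1 cell type marker is not reported here.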

Additional observations from a re-analysis of the deposited data

Results flagged for a closer look

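Of 17 groups of 4 values tested, 2 held a library far from the other 3 by Dixon's test, where chance flags about 1 in 20 groups. The first is the internal promoter of Smarcc1, at which Brg1 fl/fl replicate 2 had a relative height of 1.05 against 1.40 to 1.47 in the other 3. The second is the number of member genes with a promoter peak, 7 in Brg1 fl/fl replicate 2 and 10 in each of the others. This count cannot exceed 10, so with the other 3 at 10 any lower value is flagged, and the chance rate does not apply. Both flags fall on the library with the shortest peak list of the 8, and the part of list length in them was not tested.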

How the results depend on the processing

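Of the members, Smarca2 was called lower in the wider fit under 19 of 20 alternatives on the log2 scale (−0.70 to −0.42, adjusted p 0.00777 to 0.0730), and the exception was the deposited fold. Smarca4 (0.18 to 0.40), Smarcb1 (0.26 to 0.60) and Pbrm1 (0.09 to 0.51) kept a positive and Smarcc1 (−0.24 to −0.06) a negative difference under each log2 alternative of the first fit. Array weights, added after seeing the data, called Smarca4 (limma, adjusted p = 0.0170) and Smarcb1 (adjusted p = 0.0380), 2 of 4 members, and 3 of 8 in the wider fit. Calls over all regions rose with these weights too. They were 529 higher and 205 lower of 4566 in the first fit, and 674 and 387 of 6506 in the wider. Subtracting each library's lowest background from its heights, also not a planned setting, called 0 of 4 members in the first fit and 1 of 8 in the wider. Smarca2 then differed by −0.68 (wider fit, limma, adjusted p = 0.0101) and Smarca4 by 0.33 (first fit, limma, adjusted p = 0.0604). Over all regions of the first fit, 436 were called higher and 168 lower. The wider fit itself called 1 member, and with the deposited fold or the rank by q it called 0. Leaving out each library in turn gave 0 to 2 called members in the first fit; in the wider fit it gave 2 without Brg1 fl/+ replicate 3, Brg1 fl/fl replicate 2 or Brg1 fl/fl replicate 3, each time Smarca2 with Pbrm1, Smarca4 or Smarcb1.

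Over all regions, 432 were called higher and 160 lower. Requiring −log10 q of at least 10 gave 226 and 101, equal list lengths gave 258 higher, quantile normalization 226 higher, the deposited fold 161 and 100, the rank by q 0 and 1, averaging the libraries in pairs 280 and 86, and the wider fit 278 lower. The exact permutation test, whose p cannot fall below 0.0286, gave 0 and 0, with 732 regions at an unadjusted p under 0.05. Leaving out each library gave 314 to 497 higher and 80 to 187 lower. Averaged pairs hold fewer samples. The lists with −log10 q of at least 10 and those of equal length hold fewer regions (3001 and 3946). The part of this in the counts was not tested, nor was the cause of the other changes. With the replicate number as a block the calls were 415 and 157, and 0 of 4 members; the block changed no member's call, and as the numbers did not pair the libraries no pairing was used. The genotype difference in the mean number of detected member promoters was 0.5 (SD 1.5) and ran from −0.0833 to 1.75 over the alternatives, and that of the other member regions was −1 (SD 2.31) and ran from −2 to 0.333. It exceeded its own SD for promoters with equal list lengths (1, SD 0.816) and without Brg1 fl/fl replicate 2 (1.25, SD 1.06), and for other regions at −log10 q of at least 10 (−1.75, SD 1.14). The median shared promoter was 22 to 79 fragments high, and the promoter peaks of Arid1a, Arid1b and Arid2 were 7 to 37 fragments high. Such low heights limit what can be seen at these genes. The part of depth in their missing peaks was not tested.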
